A study of Caenorhabditis elegans with 2 samples.

Results

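The neuropeptide and insulin-like peptide genes of Caenorhabditis elegans were taken as all nuclear protein-coding genes whose symbol is flp, nlp or ins followed by a number. They numbered 147 of 19973 genes, with 31 flp, 78 nlp and 38 ins genes. Chromatin immunoprecipitation with sequencing (ChIP-seq) of the Hox transcription factor MAB-5 had been done on whole mixed-stage embryos, with the sexes not separated. The strain was OP27, genotype unc-119(ed3) III; wgIs27, whose wgIs27 transgene carries the eGFP-mab-5 fusion, and both libraries carried the same alleles. The labels describe 2 biological replicates of this 1 group, so no condition was compared and no p-value is given. The labels name mab-5 as the antibody in one field and eGFP-mab-5 as the target in another, and the listed control library was not analysed here. Whole embryos were used, so binding in neurons cannot be told apart from binding in other cells, and the number of reads is unknown.

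The flp genes encode precursors of FMRFamide-like peptides, which end in arginine and an amidated phenylalanine. The nlp genes encode the other neuropeptide-like proteins, among them antimicrobial peptides of the epidermis such as NLP-29 and NLP-31. The ins genes encode insulin-like peptides, some of which act as agonists and some as antagonists of the receptor DAF-2. Precursors of many neuropeptides are cut by the proprotein convertase EGL-3 and the carboxypeptidase EGL-21 and released from dense-core vesicles with the help of UNC-31.

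A gene was counted as having a summit where the highest point of a deposited peak lay between 2000 bp upstream and 500 bp downstream of its start. For 4 sites the sequence is given as the 201 bases around the pooled summit, from the RefSeq genome on the + strand of ce11 (WBcel235), because they are the thresholded sites (ins-39 and nlp-76), the strongest flp site (flp-23) and a shared flp site with the motif (flp-19). For flp-23 (chrIII:8650287-8650487) and nlp-76 (chrX:12665053-12665253), capitals mark bases of an annotated tRNA gene. For flp-19 (chrX:10603407-10603607), capitals mark TGATNNAT, the composite site of a Hox protein and its PBC partner. The window of ins-39 (chrX:1344899-1345099) held neither, so it has no capitals.
ins-39: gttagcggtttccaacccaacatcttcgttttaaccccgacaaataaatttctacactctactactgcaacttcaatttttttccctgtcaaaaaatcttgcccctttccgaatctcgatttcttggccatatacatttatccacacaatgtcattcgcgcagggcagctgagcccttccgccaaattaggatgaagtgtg
nlp-76: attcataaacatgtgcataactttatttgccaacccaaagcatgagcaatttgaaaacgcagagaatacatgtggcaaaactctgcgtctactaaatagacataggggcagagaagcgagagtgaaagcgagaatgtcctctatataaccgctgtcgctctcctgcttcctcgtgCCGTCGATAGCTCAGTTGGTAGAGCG
flp-23: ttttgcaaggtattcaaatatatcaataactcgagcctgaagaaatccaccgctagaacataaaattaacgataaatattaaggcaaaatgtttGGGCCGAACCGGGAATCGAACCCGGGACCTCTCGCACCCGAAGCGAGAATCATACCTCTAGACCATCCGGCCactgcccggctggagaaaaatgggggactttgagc
flp-19: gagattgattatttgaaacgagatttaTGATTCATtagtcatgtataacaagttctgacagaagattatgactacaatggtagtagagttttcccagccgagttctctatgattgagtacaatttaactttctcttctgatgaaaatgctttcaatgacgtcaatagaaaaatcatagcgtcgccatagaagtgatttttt

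The peptide genes carried MAB-5 summits about as often as all genes in each replicate, while sites found in both replicates covered a lower share of them. The authors' relaxed lists held 30000 peaks each and include background by construction, so a summit in them is not a binding call. In the list of replicate 1, 87 of the 147 peptide genes (59.2%) had a summit, beside 58% of all genes. In that of replicate 2, 78 (53.1%) had one, beside 55.7% of all genes. The mean over the replicates was 56.1% ± 4.33 (SD, n = 2) for the peptide genes and 56.8% ± 1.60 (SD, n = 2) for all genes, a difference smaller than either SD. In the list called on pooled reads, 72 peptide genes (49.0%, exact 95% binomial interval 40.7 to 57.3) had a summit, beside 54.3% of all genes.

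A site was called shared where a summit of each replicate lay in the window within 200 bp of the other. Shared sites were found at 20 peptide genes (13.6%, interval 8.51 to 20.2), beside 20.1% of all genes, a value just inside the interval. The shares were alike between the families, with 4 of 31 flp genes (12.9%), 11 of 78 nlp genes (14.1%) and 5 of 38 ins genes (13.2%). Of the 50 peptide genes with a summit in each replicate at any distance, 20 (40%) had a shared site, beside 53.1% of such genes overall. No summit in any of the 3 relaxed lists was found at 27 peptide genes (18.4%), beside 21.9% of all genes. Among these were flp-18, which encodes ligands of the NPR-1, NPR-4 and NPR-5 receptors, and ins-6 and ins-7, both DAF-2 agonists.

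The families differed most in the pooled list, and the flp genes stood apart there. Summits were found at 8 of 31 flp genes (25.8%, interval 11.9 to 44.6), 42 of 78 nlp genes (53.8%, interval 42.2 to 65.2) and 22 of 38 ins genes (57.9%, interval 40.8 to 73.7). The replicates did not repeat this order. In replicate 1 the shares were 67.7% for flp, 59.0% for nlp and 52.6% for ins, and in replicate 2 they were 45.2%, 53.8% and 57.9%. Over the replicates the flp share was 56.5% ± 15.97 (SD, n = 2), beside 56.4% ± 3.63 for nlp and 55.3% ± 3.72 for ins. The flp mean thus lay within its own spread of the other families, and its pooled share lay below both of its replicate values. A summit in a replicate with none in the pooled list was found at 16 flp genes (51.6%), 25 nlp genes (32.1%) and 7 ins genes (18.4%), beside 23.8% of all genes. Replicate 1 alone gave the summit at 9 of 31 flp genes (29.03%), among them flp-1, which acts in locomotion, and flp-11, which acts in sleep, beside 12.5% of all genes.

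**Figure D1:**
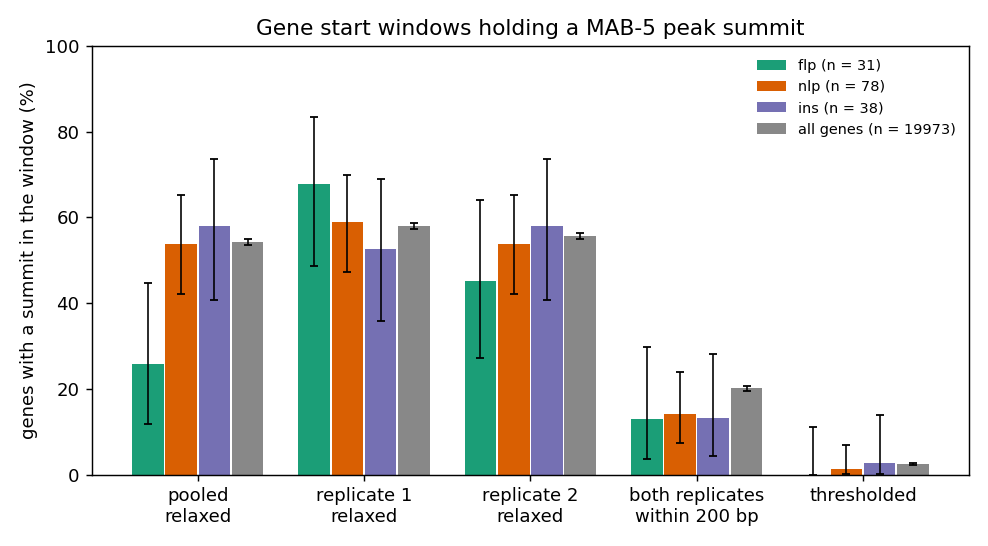
Share of genes (vertical axis, %) with a summit in the gene start window, for each peak list and for sites shared by the replicates. Bars are flp (31 genes), nlp (78), ins (38) and all 19973 genes, and lines are exact 95% binomial intervals, which cover counting error only. The flp bar is the lowest of the 4 in the pooled list (25.8%) and the highest in replicate 1 (67.7%).

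Where peptide genes had summits, their signal was modestly below that of other genes' strongest summits. The signal value is the authors' own enrichment measure, and its scale is not stated, so it was used to rank peaks within a list. The median signal of the strongest pooled summit was 11.8 over the 72 peptide genes with one, beside 12.9 for all genes with one. Among all genes with a summit, the family medians stood at percentile 42.0 for flp, 42.3 for nlp and 36.5 for ins. In the pooled list they were similar across the families and below the all-gene median. The percentiles for flp, nlp and ins were 32.2, 34.9 and 43.7 in replicate 1 and 26.1, 44.4 and 32.5 in replicate 2. They were again below the all-gene median, but the families lay further apart and in an order that differed between the replicates. The pooled signal was above the pooled all-gene median at 3 of 8 flp, 19 of 42 nlp and 7 of 22 ins genes. The deposited −log10 of the q-value reached 1.3 in the pooled list at 3 of the 147 peptide genes (2.04%), beside 5.67% of all genes. The shared site was among the 10000 strongest peaks of each replicate at 6 peptide genes (4.08%), beside 7.98% of all genes. These 6 were ins-39, nlp-76, nlp-4, nlp-10, ins-36 and flp-23.

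**Figure D2:**
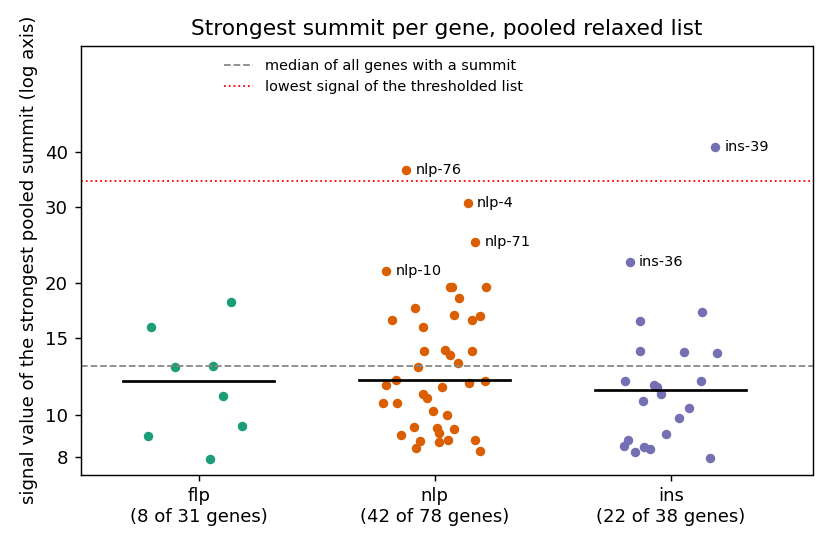
Signal value of the strongest pooled summit of each gene (vertical log axis, authors' unit) by family, with 1 point for each of 8 flp, 42 nlp and 22 ins genes and a black bar at the family median. The dashed line is the median of all genes with a summit (12.9) and the dotted line the lowest signal of the thresholded list (34.3). The points of ins-39 and nlp-76 alone lie above the dotted line.

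The thresholded list, which the authors derived from the replicates, had summits at 2 of the 147 peptide genes (1.36%, interval 0.165 to 4.83), beside 2.48% of all genes. They were the insulin-like gene ins-39 and the neuropeptide-like gene nlp-76, both on X. With 0 of 31 flp genes, the interval allows a share of up to 11.2%.

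The ins-39 site was the strongest of the 147 genes in all 3 relaxed lists. Its peak spanned chrX:1344829-1345168 and lay outside protein-coding genes, with the pooled summit at -578 bp from the gene start (negative is upstream). The signal was 41.2 in the pooled list (rank 287), 14.8 in replicate 1 (rank 446) and 26.4 in replicate 2 (rank 386). The replicate summits lay 47 bp apart, and the summit was in the window of no other gene. Its 201 bases held no TGATNNAT.

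The nlp-76 site ranked 411 in the pooled list with a signal of 36.4, at chrX:12664983-12665322. It ranked 1026 in replicate 1 (signal 11.6) and 759 in replicate 2 (signal 21.2), with summits 6 bp apart. The pooled summit lay at -1250 bp from the start of nlp-76, in an intron of nhr-17, a nuclear hormone receptor gene. It was also 75 bp from a tRNA gene (WBGene00009555, chrX:12665228-12665311, + strand). With a window of 1000 bp upstream, or with as many of the strongest peaks of either replicate alone, nlp-76 was no longer counted, while ins-39 was.

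Among the flp genes, flp-23 had the strongest pooled site, inside a tRNA gene. Its signal was 18.1 in the pooled list (rank 3325), 6.51 in replicate 1 (rank 7645) and 12.3 in replicate 2 (rank 5017), at offsets of -380, -360 and -370 bp from the gene start. The summit fell in the tRNA gene WBGene00023002 (chrIII:8650381-8650452, - strand), and its 201 bases also held 1 TGATNNAT match. A tRNA gene lay within 200 bp of the strongest pooled summit at 2 of 72 peptide genes (2.78%), beside 0.783% of all genes with a summit and 18 of 481 nuclear thresholded peaks (3.74%). This check was chosen after the sites were seen, and the part that tRNA genes have in these summits was not tested.

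The other leading flp genes ranked lower. The flp-21 gene, which encodes a ligand of NPR-1, had a signal of 15.9 in the pooled list (rank 5197) and 8.46 in replicate 1 (rank 3240), at -577 and -609 bp. In replicate 2 its strongest summit (signal 6.23) was at -1875 bp, so the site was not shared. The flp-19 site had signals of 12.9 in the pooled list, 6.77 in replicate 1 and 9.30 in replicate 2, with replicate summits 147 bp apart. Its window carried the TGATNNAT match shown in capitals. At flp-9 the pooled signal was 13.0 and the replicate 2 signal 11.7, both at -833 bp, while the replicate 1 summit (signal 4.94) was at -1187 bp. The flp-32 summit (pooled signal 11.1) was also in the window of blos-8, and the flp-26 site had a pooled signal of 9.43. The flp-10 gene had a shared site with signals of 4.18 and 5.84 in the replicates and no pooled summit.

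Among the nlp genes, nlp-4 and nlp-71 followed nlp-76 in pooled signal, but their windows were shared or their replicates disagreed. The nlp-4 summit had a pooled signal of 30.6 (rank 680) at -22 bp, and ranks of 477 in replicate 1 and 9336 in replicate 2. Its pooled signal lay below the lowest of the thresholded list (34.3), and was the nearest to it among the peptide genes outside that list. The summit was also in the windows of F59C6.18, exos-3 and ndub-10, so it cannot be given to nlp-4 alone. The nlp-71 summit had a pooled signal of 24.8 and a replicate 2 signal of 21.2 at -1800 and -1781 bp, nearer the start of exos-2, an RNA exosome subunit gene. Its replicate 1 summit (signal 9.65) was at -104 bp. The nlp-10 site had signals of 21.4 in the pooled list (rank 1943), 9.49 in replicate 1 (rank 2150) and 12.2 in replicate 2 (rank 5115), all between -944 and -889 bp. It was thus found near the same place in all 3 lists.

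The cluster of nlp genes on V that holds the antimicrobial nlp-29 and nlp-31 had pooled summits and few in the replicates. The 6 genes nlp-34, nlp-31, nlp-30, nlp-29, nlp-28 and nlp-27 had starts close together, and 4 of them had a pooled summit in their window, from 2 distinct summits. A single summit in an exon of nlp-31 (signal 19.7, rank 2510) was counted for nlp-30, nlp-31 and nlp-34. Of the 6 genes, 2 had a summit in replicate 1 and 0 in replicate 2. Over all genes the shares were 54.3% in the pooled list, 58% in replicate 1 and 55.7% in replicate 2. Windows of several of the 6 genes overlap, so they are not separate counts. At nlp-29 the summit ranked 12353 in the pooled list and 11806 in replicate 1.

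Other nlp genes of known function had lower signals or sites nearer another gene. The nlp-12 gene, which encodes a cholecystokinin-like peptide, had a pooled signal of 18.5 (rank 3074), and the summit was nearer the start of emr-1, the emerin gene. The nlp-40 gene, whose peptide is released from the intestine in the defecation cycle, had a pooled signal of 9.30 (rank 22728). The nlp-1 gene had a summit in replicate 2 alone (signal 6.39).

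Among the ins genes, ins-36 followed ins-39. Its pooled signal was 22.4 (rank 1662), in an intron of rsy-1 at -1736 bp, and its ranks in the replicates were 4346 and 9400. The ins-13 summit (pooled signal 17.2) was 391 bp downstream of the gene start, past the end of the gene and outside protein-coding genes. The shared-site ranks of ins-13, 29225 and 4492, differed widely. The ins-29 window had a pooled signal of 16.4, from a summit in an exon of ZC334.13 and nearer that gene's start. The ins-22 gene had one of 14.0, nearer another start, and ins-33 one of 13.9. Of the well-known ins genes, ins-4, ins-11 and ins-18 lay near the low end of the pooled list. The others, ins-1, ins-6 and ins-7, had no pooled summit. The agonist gene ins-4 had a pooled signal of 8.43 (rank 27072), and the antagonist gene ins-18 one of 8.51 (rank 26616). The antagonist gene ins-1 had a summit in replicate 1 alone (signal 4.25). At ins-11 the pooled signal was 8.23 (rank 28132).

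**Figure D3:**
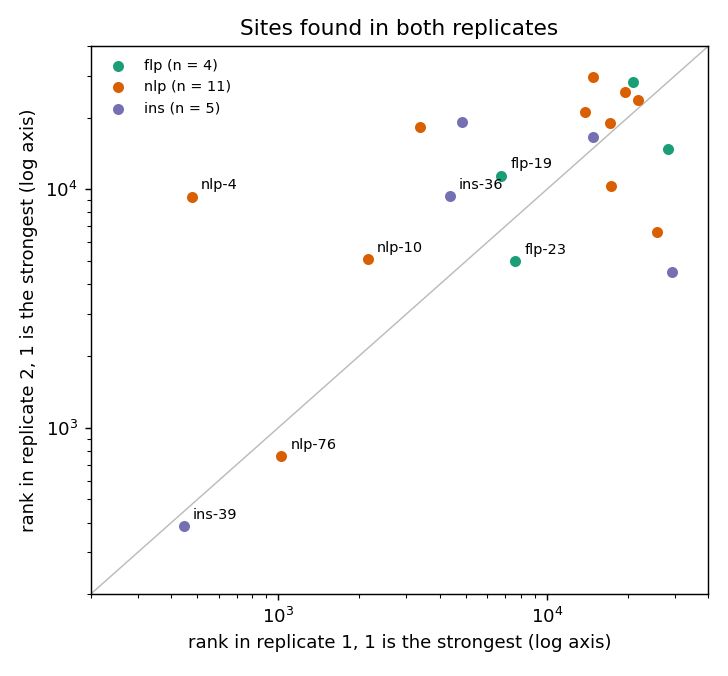
Rank of each shared site in replicate 1 (horizontal log axis) and replicate 2 (vertical log axis), where 1 is the strongest peak, with 1 point per gene for 4 flp, 11 nlp and 5 ins genes and a line of equal rank. The ins-39 and nlp-76 points lie at the lower left near the line, while nlp-4 ranks 477 in replicate 1 and 9336 in replicate 2.

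The strongest pooled summits of peptide genes were seldom just upstream of the gene start. Between -500 and -1 bp lay 7 of 72 (9.72%), beside 32.1% for all genes. Between -1000 and -501 bp lay 23 of 72 (31.9%), beside 2065 of 10854 (19.03%) for all genes. Between -2000 and -1001 bp lay 28 (38.9%), beside 33.7%, and from the start to 500 bp downstream 14 (19.4%), beside 15.2%. Counting every pooled summit in the windows gave 9 of 97 (9.28%) between -500 and -1 bp, beside 28.8% for all genes. The flp family had 2 of 8 in the nearest class, nlp 3 of 42 and ins 2 of 22. The median position was -816 bp for peptide genes and -570.5 bp for all genes. Summits that also lay in another gene's window made up 17 of 72 (23.6%), beside 40.3% for all genes. By family they were 2 of 8 for flp, 13 of 42 for nlp and 2 of 22 for ins. The strongest summit was counted once per gene, for peptide genes and all genes alike. The summit in an exon of nlp-31 was thus counted for nlp-30, nlp-31 and nlp-34, each in another position class.

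**Figure D4:**
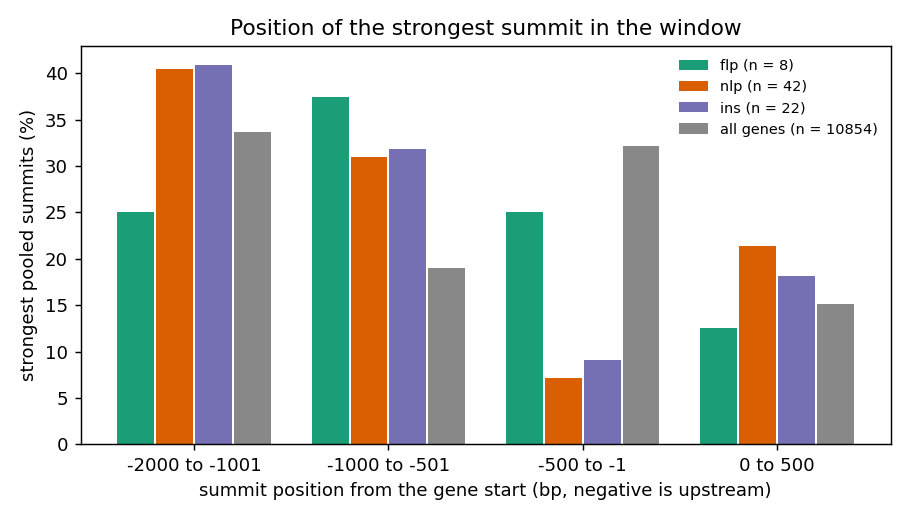
Position of the strongest pooled summit relative to the gene start (horizontal axis, bp, negative is upstream) as a share of the summits of each group (vertical axis, %). Bars are flp (8 summits), nlp (42), ins (22) and all genes (10854). The nlp and ins bars in the class from -500 to -1 bp are 7.14% and 9.09%, against 32.1% for all genes.

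Peptide genes were more often on X than other genes, and their pooled summits were scarcer there. The X chromosome held 37 of the 147 (25.2%), beside 13.7% of all genes, with 13 flp, 22 nlp and 2 ins genes. On X, 13 of 37 (35.1%) had a pooled summit, beside 56.6% of all X genes. On the autosomes 59 of 110 (53.6%) had one, beside 54.0%. The flp share was low in both, at 4 of 13 genes on X and 4 of 18 on the autosomes. In replicate 1 the X share was 64.9%, beside 60.8% of all X genes, and in replicate 2 it was 43.2%, beside 56.7%. The share on X was thus below that of all X genes in the pooled list and in replicate 2, and above it in replicate 1.

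The TGATNNAT motif was about as common at the summits of peptide genes as at those of all genes in the pooled list. Searched on both strands within 100 bp of the strongest pooled summit, it was found at 11 of 72 peptide genes (15.3%), beside 15.5% of all genes with a summit and 28.7% of the 481 nuclear thresholded peaks. By family it was found at 2 of 8 flp, 8 of 42 nlp and 1 of 22 ins summits, with nlp-30, nlp-31 and nlp-34 sharing 1 summit. The homeodomain motif TAAT followed by G or T and then A or G was found at 33 of 72 (45.8%), beside 39.7%; a match in a window is not a site.

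Peptide genes with starts at most 10000 bp from the next formed 12 clusters of 42 genes. The count of members with summits varied between these small groups. Of the 7 ins genes from ins-28 to ins-26, 5 had a pooled summit and 7 a summit in replicate 2, but 0 had a shared site. All 3 of ins-13, ins-12 and ins-11 had a pooled summit, and 1 had a shared site. The pairs ins-19 with ins-31 and ins-15 with ins-14 had no summit in any list. The windows of each pair overlap, so its members are not separate counts. Over all genes, 54.3% had a pooled summit, 55.7% one in replicate 2 and 20.1% a shared site, and 21.9% had none in any relaxed list. The clusters were not tested against those shares. Neighbouring members can also hold the same summit, as ins-29 and ins-25 did in replicate 1, so they are not separate counts. Thresholded summits lay within 10000 bp of the start of 13 peptide genes (8.84%, interval 4.79 to 14.6), beside 9.2% of all genes. Of these, 2 had the summit in the window and 11 outside it. The closest outside were 1291 bp downstream of the ins-13 start (signal 68.7) and 1909 bp downstream of the ins-17 start (signal 51.8).

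Genes that process, release or respond to such peptides, and other peptide hormone genes, were counted the same way. None of them had a thresholded summit, beside 2.48% of all genes. In the lists of 12, 20 and 22 genes a count of 0 is near that share. Of 22 genes for peptide processing and release, 16 (72.7%) had a pooled summit and 8 (36.4%, interval 17.2 to 59.3) a shared site. The highest pooled signals were at hid-1, nep-2 and tbc-8, with ranks of 2043, 2052 and 2124. HID-1 and TBC-8 act in the making of dense-core vesicles, and NEP-2 is a neprilysin-type peptidase. Of 20 insulin pathway genes, 15 (75%) had a pooled summit and 6 (30%, interval 11.9 to 54.3) a shared site. The highest pooled signals were at ftt-2 (27.1), pptr-1 (23.2) and akt-2 (18.9), and the akt-2 site was not shared. They encode a 14-3-3 protein, a PP2A subunit that acts on AKT-1 and an AKT kinase. Of 106 peptide receptor genes taken by symbol, 68 (64.2%) had a pooled summit and 12 (11.3%, interval 5.99 to 18.9) a shared site. The highest pooled signals were at npr-5 (22.4), frpr-10 (21.9) and tkr-1 (17.0), and the frpr-10 summit was also in the windows of ceh-19 and csr-1 and nearer another start. Of 12 other peptide hormone genes, 6 had a pooled summit and 1 a shared site, which was that of the insulin-like gene daf-28 (pooled signal 13.5). The next pooled signals were at snet-1 (10.9) and capa-1 (9.38), each nearer another gene's start. Over all genes the shares were 54.3% for a pooled summit and 20.1% for a shared site. The 20.1% lay inside the intervals of the processing and insulin pathway lists and above that of the receptor list. The 54.3% lay inside the pooled intervals of these lists. They were 49.8 to 89.3 for processing, 50.9 to 91.3 for insulin pathway and 54.255 to 73.2 for receptor genes. In replicates 1 and 2 the shares were 77.3% and 54.5% for processing and 65% and 80% for insulin pathway genes. Those of receptor genes were 53.8% and 58.5%, beside 58% and 55.7% of all genes.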

How the data were processed

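Peaks of MAB-5 ChIP-seq from 2 replicates were analysed. The authors deposited relaxed peak lists for each replicate and for pooled reads, and a thresholded list of 502 peaks, in ce11. Column 7 of these deposited lists is a signal value, and the authors give the −log10 of the q-value beside it. No source used here gives the peak caller, the aligner or their versions. The ce10 lists and mitochondrial peaks were not used. Gene starts came from Ensembl release 115 (WBcel235), and symbols from RefSeq, matched by locus for 99.9% of 19973 genes and all 147 peptide genes; 1 pseudogene with an ins symbol was left out.

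Members and lists were chosen with earlier results of these data known. Genes were named where they had a thresholded summit, 1 of the 5 highest pooled signals or 3 best shared ranks of a family, or stood among 15 well-known peptide genes; from each pathway list up to 3 with the highest pooled signal were named. Others were chosen after their values were seen. Intervals are exact 95% binomial (Clopper-Pearson) and cover counting error only. Alternatives changed the window, peak threshold, site distance, assignment and replicate. Counting steps were tested on simulated data. Analyses used Python 3.11.15, numpy 2.4.6, pandas 2.3.3, scipy 1.17.1 and matplotlib 3.10.9.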

Additional observations from a re-analysis of the deposited data

How the results depend on the processing

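With 1 group, 2 replicates and unknown depth, differences here are descriptions. No paired analysis was possible because the study has 1 group. The window upstream moved the pooled share. With 1000 bp it was 34.7% for all peptide genes (41.9% of all genes), 19.4% for flp, 38.5% for nlp and 39.5% for ins. With 5000 bp it was 76.9% (73.3%), 51.6% for flp, 83.3% for nlp and 84.2% for ins. Counting each summit for the nearest start gave 40.8% (42.8%), 22.6% for flp, 44.9% for nlp and 47.4% for ins. Keeping the 15000 strongest peaks gave 28.6% (35.6%), 12.9% for flp, 33.3% for nlp and 31.6% for ins. The 5000 strongest gave 12.2% (16.6%), 3.23% for flp, 16.7% for nlp and 10.5% for ins. Replacing the pooled list by 1 replicate gave 53.1% to 59.2% for all peptide genes, 45.2% to 67.7% for flp, 53.8% to 59.0% for nlp and 52.6% to 57.9% for ins. On autosomes alone, chosen after seeing the data along with every transcript start, the share was 53.6%, and 60.7% for nlp.

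The share of shared sites was 8.16% within 100 bp (14.1% of all genes), with 3.23% for flp, 10.3% for nlp and 7.89% for ins. Within 500 bp it was 23.1% (28.1%), with 25.8%, 24.4% and 18.4% in the same order. With 5000 bp upstream it was 25.9% (32.6%), with 22.6%, 26.9% and 26.3%. With the 15000 strongest peaks it was 4.76% (10.8%), with 6.45%, 3.85% and 5.26%. A shared site needs both replicates, so neither could be left out. With genes without a summit at 0, the median pooled signal was 0 for all peptide genes and for flp, 8.69 for nlp and 8.40 for ins, beside 8.65 for all genes. The thresholded count was 0 with the stronger part of that list, beside 220 of all 19973 genes. It was 1 (ins-39) with 1000 bp upstream, beside 370 of all genes. With 5000 bp it was 3 (nlp-36, ins-39 and nlp-76), beside 783. With as many of the strongest peaks of replicate 1 it was 2 (nlp-4 and ins-39), beside 449. With those of replicate 2 it was 1 (ins-39), beside 454. Thus ins-39 stood in both replicates and nlp-76 in neither.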

Other observations

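The share of genes with a pooled summit was, over all genes, 61.1% in the lowest of 4 equal classes of window GC content, then 55.2% and 54.4%, and 46.6% in the highest. For the peptide genes the shares were 68.2%, 27.9%, 59.4% and 39.3% in the same order. The flp genes had a summit at 2 of 5, 2 of 11, 4 of 9 and 0 of 6. In replicate 1 the peptide gene shares were 59.1%, 58.1%, 75% and 42.9%, beside 57.6%, 59.8%, 59.2% and 55.2% of all genes. In replicate 2 they were 54.5%, 39.5%, 75% and 46.4%, beside 61.0%, 57.1%, 56.1% and 48.6%. Replicate 1 thus did not repeat the pooled pattern. The median GC content of the windows was 34.5% for peptide genes and 35.3% for all genes. This split was chosen after seeing the data.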
